A study of Mus musculus with 12 samples.

Results

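The 44 genes described here are known imprinted genes of the mouse, taken from a fixed list of symbols, and all 44 were present among the 55450 genes of the GENCODE M21 annotation of GRCm38/mm10. They comprised 37 of the 21951 protein-coding genes and 7 noncoding RNA genes. Trimethylated lysine 4 of histone H3 (H3K4me3), a modification that marks promoters in use or held ready, was mapped by CUT&Tag in nuclei of the medial, lateral and caudal ganglionic eminences (MGE, LGE and CGE) and of the cortex (CTX). In CUT&Tag an antibody brings a transposase to the modified chromatin, and the released fragments are sequenced. The tissue came from C57BL/6J mouse embryos at E12.5 (embryonic day), without treatment or genetic change, and embryos were pooled. The labels' protocol, which the libraries share, also names E14.5 embryos, and it says that nuclei of all 4 regions were pooled in equal numbers, whereas each library is labelled with a single region. Each list is taken here as its label gives it.

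The 12 libraries covered 2 replicates of each region (3 libraries of MGE, 2 of LGE, 4 of CGE and 3 of CTX), and the authors merged them into 1 list of broad peaks per region. The lists held 17284 peaks in LGE, 17752 in CGE, 25339 in MGE and 21442 in CTX. The lists carry no read counts, so the number of reads under a peak is unknown. The sequencing depths stated in the study's methods differ between the regions, with CGE the deepest and MGE the shallowest, and depth and region cannot be told apart. With 1 list per region there was no spread between replicates, so every comparison below is a comparison of these lists without a test. Because both parental genomes are of the same inbred strain, the allele that carried a peak cannot be told apart.

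An imprinted gene is transcribed from only 1 of the 2 parental copies in at least some tissues. The choice is set by differentially methylated regions (DMRs), stretches of DNA whose methylation is laid down in the egg or the sperm, called germline DMRs, and kept on that copy after fertilization by the zinc finger proteins ZFP57 and ZFP445 with TRIM28. H3K4me3 and DNA methylation are known to exclude each other, so that at a germline DMR the modification is usually carried by the unmethylated copy. Imprinted genes lie in clusters, in which a single control region can set the expression of several genes, often through a long noncoding RNA. Many of them act in growth, placental function and the developing brain.

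A gene was called marked when a peak lay within 5 kb of any of its annotated transcription start sites (starts), and its covered bases were the number of bases under peaks in those windows. Of the 44 imprinted genes, 40 (90.9%) were marked in LGE, 40 in CGE, 38 (86.4%) in MGE and 36 (81.8%) in CTX. Of all annotated genes, 34.9% were marked in LGE, 35.2% in CGE, 36.5% in MGE and 35.1% in CTX. Noncoding genes are a larger part of the annotation than of the imprinted list, and among protein-coding genes alone 64.2%, 64.6%, 65.0% and 63.8% were marked in LGE, CGE, MGE and CTX. Of the 37 protein-coding imprinted genes, 34, 34, 33 and 31 were marked in the same order of lists. A peak in all 4 lists was found at 36 imprinted genes, against 32.7% of all genes, and at 31 of the 37 protein-coding ones, against 61.3% of protein-coding genes. The 4 genes without a peak in any list were Slc22a18 (a membrane transporter), Kcnq1 (a potassium channel), Rian (the host RNA of small nucleolar RNAs) and Trappc9 (a subunit of a trafficking complex). The plot of covered bases by gene shows that the other gaps were Dlk1 and Dio3 in CTX, and Mirg and Kcnk9 in MGE and CTX.

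**Figure D1:**
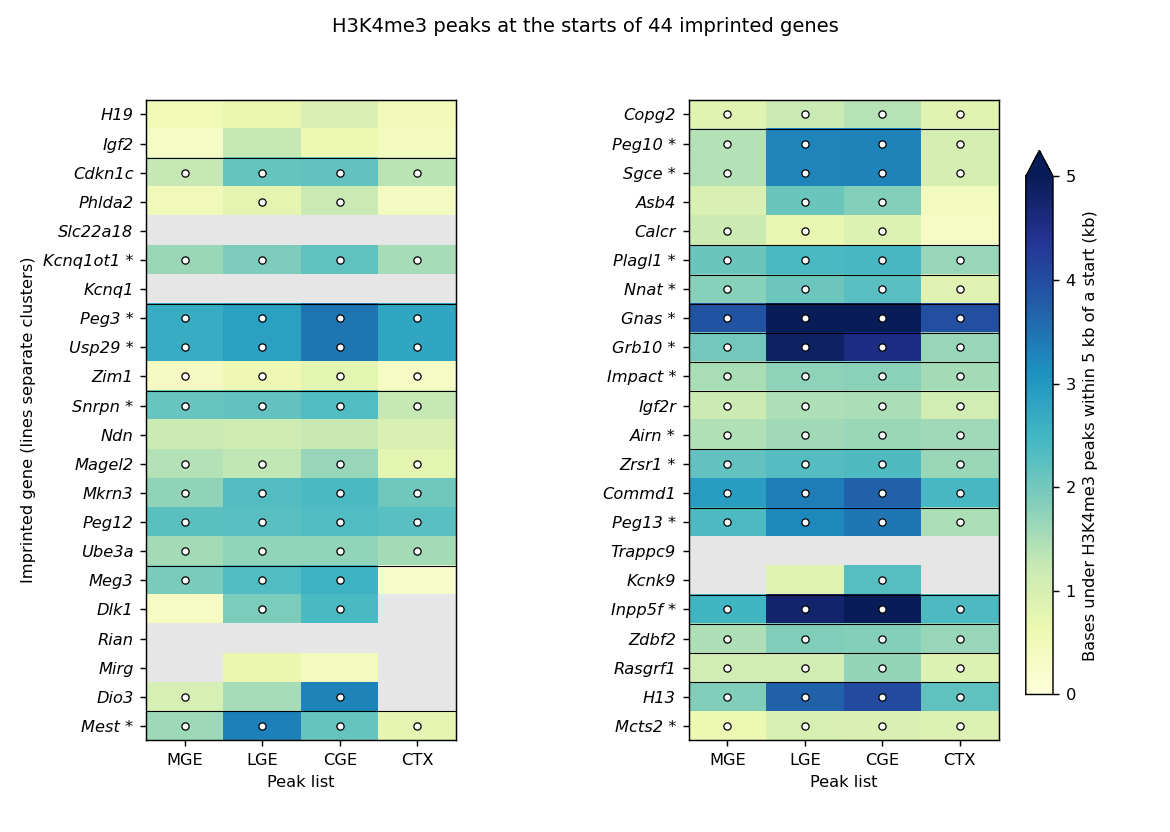
Bases under H3K4me3 peaks within 5 kb of an annotated start (colour, in kb, with values above 5 kb in the darkest shade) for the 44 imprinted genes (rows, an asterisk marks a germline DMR at a start) in the 4 peak lists (columns). Grey cells have no peak, white dots mark a start inside a peak, and all 17 genes with an asterisk have a dot in every list.

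A peak number missing from a list would leave room for a peak that was called but is not among those used here. The peak caller numbers its peaks along the genome, and 59 numbers were missing from the LGE list, 64 from CGE, 33 from MGE and 31 from CTX. At the 22 places where an imprinted gene had no peak in a list, 0 numbers were missing between the peaks on either side of the gene's starts. With so few numbers missing from lists of 17284 to 25339 peaks, 0 was the likely outcome, and no conclusion is drawn from it.

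The imprinted genes were divided into those with a germline DMR at a start and the others. A start of all 17 genes with a germline DMR lay inside a peak in all 4 lists, whereas this was so for 12 of the 27 other imprinted genes. Restricted to protein-coding genes, the counts were 14 of 14 and 12 of 23, and 54.7% of all protein-coding genes and 25.2% of all genes had a start inside a peak in all 4 lists. Any annotated start of a gene counts here, and Grb10 entered through an upstream start, while its downstream starts, at which its germline DMR lies, were inside a peak in LGE and CGE only. Both counts depend on the annotation. The RefSeq counterpart of the marked Snrpn start, 88 bp away, lay inside the peak in CTX only. It lay 81, 56 and 14 bp from the peak in LGE, CGE and MGE. A further RefSeq start of Snrpn, 309958 bp from any GENCODE start, lay inside peaks of the 3 eminences. Among the 27 others, a RefSeq start of Ndn and 1 of Igf2 lay inside a peak in all 4 lists. The 17 genes were Kcnq1ot1, Peg3, Usp29, Snrpn, Mest, Peg10, Sgce, Plagl1, Nnat, Gnas, Grb10, Impact, Airn, Zrsr1, Peg13, Inpp5f and Mcts2. When only the annotated 5′ end of each gene was used in place of every start, 12 of the 17 and 18 of the 27 others had a peak within 5 kb in all 4 lists, against 17 and 19 with every start. The 17 genes make up 15 separate windows, because Peg3 and Usp29 are divergent neighbours that share their peak, and so are Peg10 and Sgce. The 27 others had a start inside a peak in 17 cases in LGE, 19 in CGE, 15 in MGE and 12 in CTX. In the protein-coding genes as a whole the shares were 59.0%, 59.8%, 57.2% and 57.0%. The germline DMRs of H19, Rasgrf1 and the Dlk1-Meg3 cluster lie between genes, so these genes were counted among the 27. Zdbf2 was also counted there, as no germline DMR was assigned to its GENCODE starts. An upstream RefSeq start of Zdbf2, 72907 bp from them, was not used and lay outside every peak. The nearest peak was 3755 bp away in MGE and 22530 bp or more in the other lists.

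**Figure D2:**
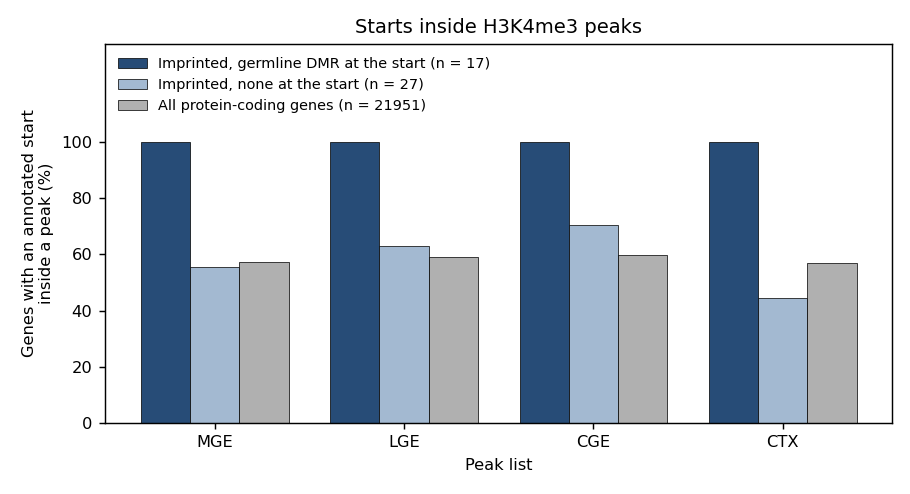
Share of genes (vertical axis, in percent) with an annotated start inside a peak in each list, for the 17 imprinted genes with a germline DMR at a start, the 27 others and all 21951 protein-coding genes. Bars of the first group reach 100% in every list, those of the 27 others are lowest in CTX, and no error bars are drawn because each list is a single merged sample.

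Among germline DMR genes, the covered bases also placed high within each list. Their median percentile among all marked genes was 93.1 in LGE, 85.7 in CGE, 91.4 in MGE and 78.6 in CTX. For the other marked imprinted genes, the median percentile was 54.9 in LGE, 64.9 in CGE, 62.0 in MGE and 36.9 in CTX. In covered bases, the germline DMR genes had medians of 2858 bp in LGE, 2431 bp in CGE, 2004 bp in MGE and 1543 bp in CTX, and the marked others 1448, 1718, 1161 and 884 bp. Mcts2, a retrogene of a translation factor within an intron of H13, was the lowest of the germline DMR genes in MGE with 607 bp, against 890 bp in CTX, 942 bp in CGE and 963 bp in LGE. A gene with several starts has longer windows, and this was not corrected for.

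The promoters of 6 genes are printed to show what the sequence at such starts looks like, each as the 250 bases before a RefSeq start on GRCm38.p6, in the direction of transcription and with every CG dinucleotide, whose cytosine is the base that can be methylated, in capitals. Mest, Plagl1, Kcnq1ot1 and Airn are germline DMR promoters, and Kcnq1ot1 and Airn also start the silencing RNAs of their clusters. Meg3 is a start that lay inside a peak in the eminences only, and Rian was marked nowhere.
Mest, chr6:30737800-30738049 (+ strand): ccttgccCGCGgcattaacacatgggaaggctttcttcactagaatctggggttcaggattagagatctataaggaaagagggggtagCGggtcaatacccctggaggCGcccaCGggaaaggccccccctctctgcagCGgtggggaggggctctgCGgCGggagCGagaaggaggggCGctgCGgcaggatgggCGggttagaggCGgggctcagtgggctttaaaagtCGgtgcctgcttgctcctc
Plagl1, chr10:13090582-13090831 (+ strand): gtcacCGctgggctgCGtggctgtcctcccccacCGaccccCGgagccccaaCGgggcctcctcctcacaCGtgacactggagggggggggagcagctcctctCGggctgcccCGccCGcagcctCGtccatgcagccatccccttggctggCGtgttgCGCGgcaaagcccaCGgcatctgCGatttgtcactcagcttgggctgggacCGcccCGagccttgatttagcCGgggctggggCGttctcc
Kcnq1ot1, chr7:143296548-143296797 (- strand): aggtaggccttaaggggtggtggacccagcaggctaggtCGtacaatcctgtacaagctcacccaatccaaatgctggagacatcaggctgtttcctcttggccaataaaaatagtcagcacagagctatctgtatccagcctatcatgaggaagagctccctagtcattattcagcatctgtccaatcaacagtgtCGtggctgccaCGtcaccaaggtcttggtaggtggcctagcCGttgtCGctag
Airn, chr17:12741061-12741310 (+ strand): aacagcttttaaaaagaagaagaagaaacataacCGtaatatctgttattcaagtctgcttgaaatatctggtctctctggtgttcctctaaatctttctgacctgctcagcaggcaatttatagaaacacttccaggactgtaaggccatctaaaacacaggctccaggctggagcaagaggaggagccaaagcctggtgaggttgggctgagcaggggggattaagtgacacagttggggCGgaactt
Meg3, chr12:109540746-109540995 (+ strand): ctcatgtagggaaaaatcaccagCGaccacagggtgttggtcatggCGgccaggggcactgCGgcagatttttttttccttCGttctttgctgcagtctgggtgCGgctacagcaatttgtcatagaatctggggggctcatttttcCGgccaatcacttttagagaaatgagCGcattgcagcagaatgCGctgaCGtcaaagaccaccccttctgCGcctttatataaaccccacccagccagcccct
Rian, chr12:109603695-109603944 (+ strand): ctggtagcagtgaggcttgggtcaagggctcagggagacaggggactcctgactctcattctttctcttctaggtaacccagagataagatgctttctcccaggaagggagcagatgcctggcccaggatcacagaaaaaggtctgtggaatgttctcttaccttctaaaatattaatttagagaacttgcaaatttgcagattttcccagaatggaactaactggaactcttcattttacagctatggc
These stretches held 14 CG dinucleotides at Mest, 19 at Plagl1, 5 at Kcnq1ot1, 2 at Airn, 10 at Meg3 and 0 at Rian. All 250 bases of the Plagl1 stretch lay under a peak in every list. At Mest 250 bases lay under a peak in LGE, 250 in CGE, 157 in MGE and 186 in CTX. The peaks of Airn lay mostly downstream of its start and took in 55, 71, 34 and 77 of the printed bases in LGE, CGE, MGE and CTX. Those of Kcnq1ot1 also lay mostly downstream and took in 137, 195, 237 and 219 in the same order. The CG counts of Airn and Kcnq1ot1 therefore describe the bases before the start and not most of the sequence under their peaks. The Meg3 stretch had 250 bases under a peak in LGE, 250 in CGE, 123 in MGE and 0 in CTX.

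RefSeq promoter sequences were available for 35 of the 44 genes, with 52 promoters between them, so no share over the whole list is given. Those not matched were H19, Cdkn1c, Kcnq1, Peg10, Sgce, Impact, Peg13, Trappc9 and Kcnk9. The hexamer TGCCGC, which ZFP57 binds when its CG is methylated, was searched on both strands of the 300 bases around each start. It was present in 11.6% of all 32851 RefSeq promoters and in 14 of the 52 imprinted ones, at 13 genes. Mest held 2 copies, starting 242 and 67 bases before the start, Plagl1 held 1 copy starting 90 bases before it, and Meg3 held 1 copy starting 190 bases before it. Kcnq1ot1, Airn and Rian held 0. Genes with and without a germline DMR at a start held a copy. Those with one were Mcts2, Nnat, Mest, Snrpn, Plagl1 and Grb10, and the others Zdbf2, Calcr, Copg2, Zim1, Igf2, Commd1 and Meg3. The YY1 octamer AAGATGGC was present in 2.75% of all promoters and at 1 imprinted promoter, that of Ube3a, and the CTCF consensus of the H19 control region in 0.122% of all promoters and at 1 imprinted one, that of Commd1. A match describes the letters of these windows and no binding was measured.

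In 3 clusters a long noncoding RNA is transcribed from the paternal copy and runs across or beside a protein-coding gene, and each of these RNAs had a start inside a peak in every list. Kcnq1ot1 (chr7:143203458-143296549), the antisense RNA that silences its cluster on the paternal copy, had 1 peak over its start in each list, with 1887 bp in LGE, 2169 bp in CGE, 1648 bp in MGE and 1530 bp in CTX. Airn (chr17:12741311-12860136), antisense to Igf2r, had a peak over its first starts of 1565 bp in LGE, 1653 bp in CGE, 1443 bp in MGE and 1587 bp in CTX. Peg13 (chr15:72805600-72810324), which lies inside an intron of Trappc9, had 3227, 3444, 2368 and 1468 covered bases in the same order. Covered bases in MGE were 1.08 times those in CTX for Kcnq1ot1, 0.909 times for Airn and 1.61 times for Peg13.

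Their protein-coding partners differed from one another. Igf2r, the receptor that clears IGF2 from the cell surface, had a peak over its main start in every list, with 1448 bp in LGE, 1501 bp in CGE, 957 bp in MGE and 1080 bp in CTX, and its start lay 28.4 kb from that of Airn. Kcnq1 had no peak at any start, and the peak nearest to its starts lay 35738 bp away in LGE, 35732 bp in CGE, 36001 bp in MGE and 35794 bp in CTX. Trappc9 was also without one, the nearest peak being 28850, 28722, 28945 and 28830 bp from its first starts. Kcnk9, a potassium channel gene at the other end of the Peg13 cluster, had a peak in LGE and CGE only, a pattern found at 1.31% of genes with a peak in any list. Its peak had 835 bp in LGE, 554 bp from the start, and 2271 bp in CGE over the start. The −log10 q was 1.96 in LGE and 6.10 in CGE, so with a −log10 q of at least 2 the peak in CGE was the only one.

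**Figure D3:**
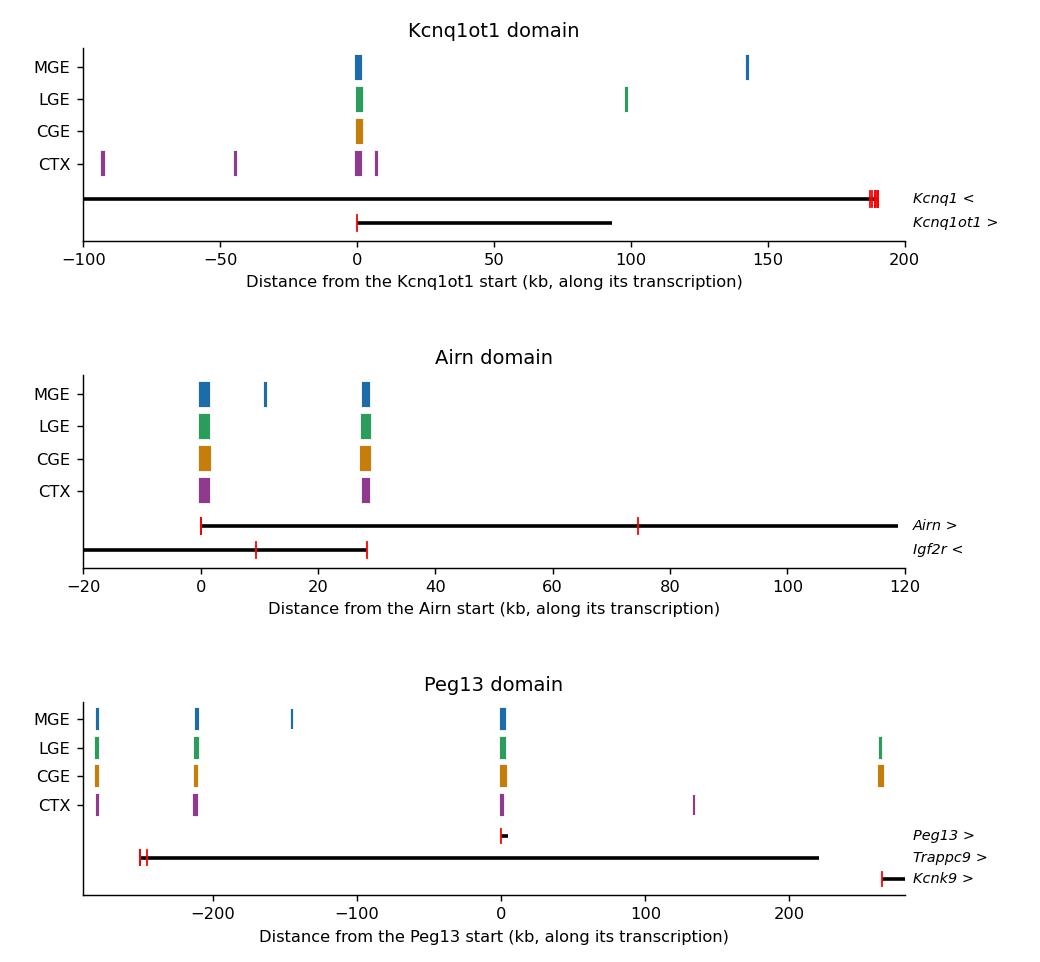
H3K4me3 peaks (coloured blocks, 1 row per list, drawn with an outline that widens the narrowest) along the Kcnq1ot1, Airn and Peg13 domains, against distance from the start of each RNA in kb along its own transcription. Black lines are genes, red ticks annotated starts and arrowheads the direction, and each RNA start has a block in all 4 rows whereas the starts of Kcnq1 and Trappc9 have none.

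The other genes of the Kcnq1 cluster are expressed from the maternal copy. Cdkn1c, a cyclin-dependent kinase inhibitor that takes cells out of division, had 2114 covered bases in LGE, 2164 in CGE, 1259 in MGE and 1349 in CTX, with its first starts inside a peak in every list. Phlda2, known for limiting placental growth, had a start inside a peak in LGE and CGE, and the peaks of MGE and CTX ended 230 and 5 bp from its starts. By the RefSeq annotation, Phlda2 starts inside the CTX peak and 213 bp from the nearest MGE peak. Its covered bases were 744 in LGE, 1185 in CGE, 503 in MGE and 361 in CTX. The MGE peak nearest to Phlda2 had a −log10 q (the caller's adjusted p on a negative log scale) of 1.15, and 343 of the 503 bases of MGE came from another peak that lay outside windows of 2 kb. The CTX peak had a −log10 q of 1.53, and with a −log10 q of at least 2 Phlda2 had 0 covered bases in CTX and 343 in MGE. Slc22a18, between the pair of them, had no peak closer than 8209 bp in any list.

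The Dlk1-Meg3 cluster on chromosome 12 differed between the eminences and CTX by the number of marked genes. Of its 5 genes, 4 were marked in LGE, 4 in CGE, 3 in MGE and 1 in CTX, and no start of the 5 lay inside a peak in CTX. Meg3 (chr12:109541001-109571726), a long noncoding RNA transcribed from the maternal copy, had 2335 covered bases in LGE, 2558 in CGE, 1915 in MGE and 227 in CTX. In the 3 eminences its first starts lay inside a peak, and in CTX the single peak in its windows lay 4985 bp downstream of them. This CTX peak ended 173 bp before an inner annotated start of Meg3. The CTX value of 227 bases fell to 10 with the 5′ end alone and to 0 without peaks under 243 bp. No fold between the lists is therefore given for Meg3. A value at least 2 times higher in MGE than in CTX was found at 2.77% of genes with a peak in both lists, and at 5 of 36 imprinted genes. They were Meg3, Calcr (3.70 times), Asb4 (2.23 times), Mest (2.19 times) and Nnat (2.11 times). When peaks less than 1 kb apart were joined 4 genes passed, without Mest and Nnat and with Peg13 in addition, and at the 5′ end alone 2 passed, Meg3 and Calcr. The opposite, 2 times higher in CTX, was found at 0 of the 36 and at 2.66% of genes with a peak in both lists.

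Dlk1 (chr12:109452823-109463336), a paternally expressed ligand-like protein of the Notch family, had 1902 covered bases in LGE, 2411 in CGE, 343 in MGE and 0 in CTX. In LGE and CGE a peak covered its first 8 starts, in MGE 2 narrow peaks of 140 and 203 bp lay between them, and in CTX the nearest peak was 6546 bp away. With windows of 10 kb Dlk1 had 586 covered bases in CTX, and with peaks narrower than 243 bp removed it had 0 in MGE. Dio3 (chr12:110279068-110281097), the deiodinase that inactivates thyroid hormone, had 1528 covered bases in LGE, 3282 in CGE, 1005 in MGE and 0 in CTX, where the nearest peak was 90132 bp away. Its start lay inside a peak in MGE and CGE, and 620 bp from one in LGE. By the RefSeq annotation, Dio3 starts inside the CGE peak and 107 bp from one in MGE. Most of the LGE and MGE bases of Dio3 came from weak peaks, of 1283 bp with a −log10 q of 1.55 in LGE and of 776 bp with 1.73 in MGE. With a −log10 q of at least 2 its covered bases were 245 in LGE, 3282 in CGE and 229 in MGE. A peak in the 3 eminences and not in CTX was found at 2.03% of genes with a peak in any list, and Dlk1 and Dio3 were the 2 imprinted genes with it. With lists of equal length Dio3 had 0 covered bases in MGE and left this pattern, which Igf2 and Phlda2 then joined. Dio3 was 1 of 2 imprinted genes, with Kcnk9, that had at least 2 times as many covered bases in CGE as in LGE, against 1.58% of genes with a peak in both lists. Mirg, the host RNA of a microRNA cluster, had a peak of 652 bp in LGE and 446 bp in CGE that lay 1507 and 1732 bp beyond its last starts. Rian had no peak within 5 kb, and in the 3 eminences a peak of 840 bp in MGE, 681 bp in LGE and 809 bp in CGE lay 8912, 8938 and 8922 bp from its first starts. Rtl1, the retrotransposon-derived protein-coding gene antisense to this stretch, had no peak in any list. About 13 kb before Meg3, on the side of the intergenic germline DMR, peaks of the 3 eminences began 13.5, 13.4 and 13.5 kb upstream of its first start in MGE, LGE and CGE, and CTX had none there.

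**Figure D4:**
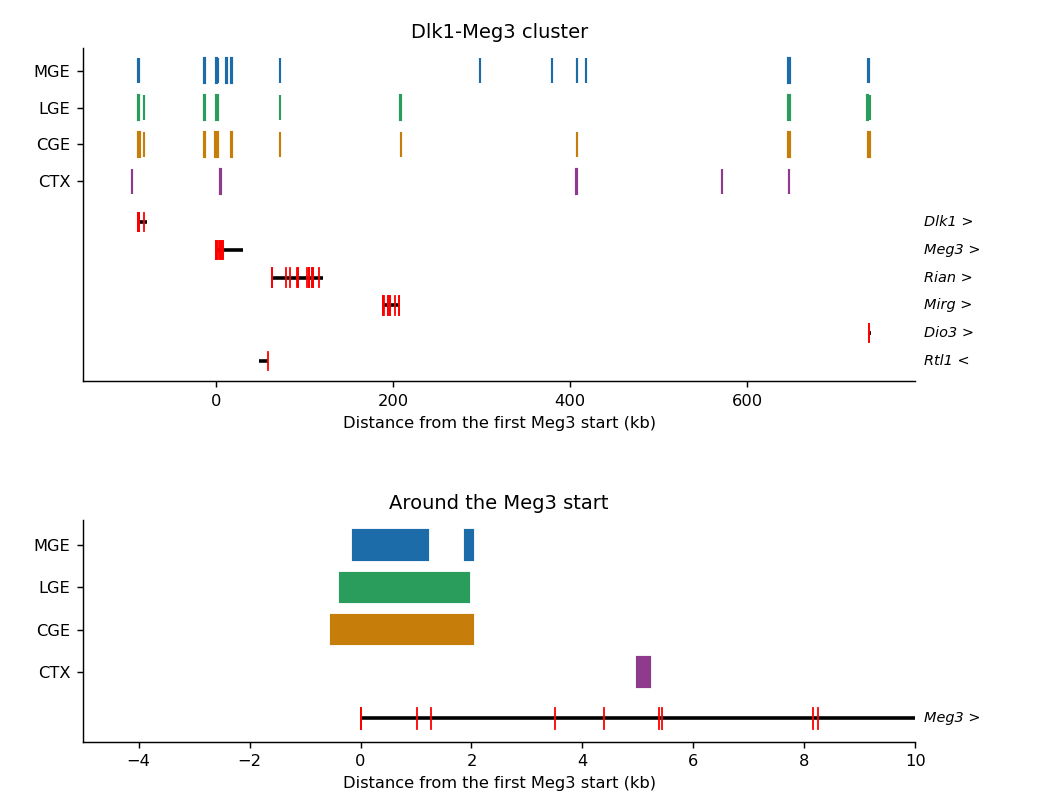
H3K4me3 peaks (coloured blocks, 1 row per list, outlined so that the narrowest stay visible) across the Dlk1-Meg3 cluster (upper panel) and around Meg3 (lower panel), against distance from the first Meg3 start in kb. Black lines are genes with red ticks at annotated starts, and in CTX the Meg3, Dlk1 and Dio3 starts have no block whereas a 227 bp block lies 4.99 kb into Meg3.

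More generally, 36 imprinted genes had a start inside a peak in at least 1 list, 29 of them in all 4. The remaining 7 were Phlda2, Meg3, Dlk1, Dio3, Asb4, Calcr and Kcnk9, which is 19.4% of the 36, against 14.2% of all genes with a start inside a peak in any list. By GENCODE starts, none of the 7 had one in CTX and all 7 had one in CGE, while 5 had one in LGE and 3 in MGE. These counts depend on the annotation. The RefSeq start of Phlda2 lay inside its CTX peak, and that of Dio3 lay 107 bp from the nearest MGE peak. Among all genes with a start inside a peak in 1 to 3 lists, 66.7% had none in CTX, 76.6% had one in CGE, 65.0% in LGE and 36.4% in MGE. A start inside a peak in MGE, LGE and CGE but not CTX was found for Meg3 and Calcr, against 2.62% of all genes with a start inside a peak in any list, and in LGE and CGE only for Phlda2, Dlk1 and Asb4, against 3.30%. By the looser rule of a peak within 5 kb, 4 of 40 marked imprinted genes were marked in 1 to 3 lists, against 16.3% of all marked genes. Markers of the regions were not limited to their own lists. Nkx2-1 and Lhx8, factors of the MGE, had peaks in all 3 eminences and none in CTX, and Emx1, a factor of the cortex, had 3337 covered bases in LGE, 3453 in CGE, 495 in MGE and 2969 in CTX.

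All 4 imprinted genes of the Peg10 cluster had a peak in every list, with the fewest covered bases in CTX. Peg10, a gene derived from a retrotransposon and needed in the placenta, and Sgce, epsilon-sarcoglycan, start back to back and shared 3262 covered bases in LGE, 3293 in CGE, 1425 in MGE and 1028 in CTX. In LGE and CGE 1 peak spanned the region, and in MGE and CTX it was split into a pair of peaks. Asb4, a maternally expressed ankyrin-repeat protein, had 2088 bp in LGE, 1818 bp in CGE, 942 bp in MGE and 423 bp in CTX. Its first start lay inside a peak in LGE and CGE and over 2 kb from one in MGE (2359 bp) and CTX (2304 bp). Calcr, the calcitonin receptor, was the 1 imprinted gene with its highest value in MGE, with 1154 bp there, 883 bp in CGE, 693 bp in LGE and 312 bp in CTX. Of the 10 other protein-coding genes that start within this cluster, Bet1, Col1a2, Casd1, Ppp1r9a and Pon2 had a start inside a peak in every list, Gng11 had peaks in LGE and CTX only, and Tfpi2, Gngt1, Pon1 and Pon3 had none.

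At the Snrpn cluster, the mouse counterpart of the human Prader-Willi and Angelman region, all 6 genes were marked in every list. Snrpn, a protein of the spliceosome whose start is the control region of the cluster, had 2156 covered bases in LGE, 2333 in CGE, 2109 in MGE and 1257 in CTX. Peg12, a relative of the Frat proteins, varied least of the 6, with 2265, 2329, 2245 and 2261 bp. Mkrn3, a makorin ubiquitin ligase known for its part in the timing of puberty, had 2315 bp in LGE, 2396 bp in CGE, 1723 bp in MGE and 2017 bp in CTX. Magel2, a protein of the MAGE family, had 1324, 1662, 1418 and 781 bp in the same order. Ube3a, a ubiquitin ligase that is expressed from the maternal copy in neurons, had 1707, 1718, 1550 and 1550 bp, and the start of its antisense transcript lies far away at Snrpn. Necdin (Ndn), another MAGE protein, had 1128, 1226, 1165 and 951 bp, although its annotated start lay 1641, 1651, 1612 and 1612 bp before the peak. The RefSeq start of Ndn lies 1708 bp from that of GENCODE, inside the peak in all 4 lists, so its absence from the count of starts inside a peak follows the annotation.

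H19 and Igf2 share a control region between them that binds CTCF on the maternal copy. Neither had a start inside a peak in any list. H19 (chr7:142575529-142578143), a maternally expressed long noncoding RNA, had 1 peak in each list, of 651 bp in LGE, 937 bp in CGE, 513 bp in MGE and 501 bp in CTX. These peaks lay upstream of its first starts by 1971 bp in LGE, 1747 bp in CGE, 2153 bp in MGE and 2116 bp in CTX, on the side of the control region. Igf2 (chr7:142650766-142666816), the paternally expressed growth factor, had 1261 bp in LGE, 619 bp in CGE, 317 bp in MGE and 447 bp in CTX. Every Igf2 peak lay between annotated starts and had a −log10 q from 1.68 to 2.80, which is weak next to the 17.4 or more of Kcnq1ot1 in these lists. One of the RefSeq starts of Igf2, 685 bp from the nearest GENCODE start, lay inside a peak in all 4 lists. Igf2 was also the 1 imprinted gene with at least 2 times as many covered bases in LGE as in CGE, against 0.436% of genes with a peak in both lists, and LGE had a second peak there of 657 bp. This peak had a −log10 q of 1.68, and with a −log10 q of at least 2 it was lost, which left 604 bp in LGE against 619 bp in CGE. With that setting, or with lists of equal length, H19 had no peak in MGE and Igf2 none in CTX.

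Gnas and Grb10 are expressed from either copy depending on the start. Gnas (chr2:174284320-174346744), which encodes the stimulatory G protein alpha subunit, had 5598 covered bases in LGE, 7522 in CGE, 3907 in MGE and 3960 in CTX, with percentiles among marked genes of 99.6 in LGE, 99.9 in CGE, 99.5 in MGE and 99.4 in CTX. Its starts fall into 7 groups. The first pair of groups, at the maternally expressed Nesp transcript, each had a start inside a peak in CGE and 1 other eminence, and in CTX the nearest peak was 9112 bp or more away. A peak 1829 to 2015 bp from the third group, near the paternally expressed XLas transcript, was present in every list, with 1714 bp in LGE, 1705 bp in CGE, 1355 bp in MGE and 1561 bp in CTX. The fourth group, at the exon 1A germline DMR, and the fifth, the main start of the G protein, lay inside separate peaks in every list.

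Grb10 (chr11:11930508-12038683), an adaptor protein that restrains insulin and growth factor signalling, had 4868 covered bases in LGE, 4537 in CGE, 2004 in MGE and 1675 in CTX. An upstream start, used by the maternal copy in most tissues, lay inside a peak in every list, of 3477 bp in LGE, 3111 bp in CGE, 1420 bp in MGE and 1461 bp in CTX. The downstream starts used by the paternal copy in neurons lay inside peaks of 1391 bp in LGE and 1426 bp in CGE. In MGE a peak of 253 bp with a −log10 q of 1.18 lay 265 bp from them, and in CTX the nearest was 8713 bp away. Inpp5f, an inositol phosphatase with a paternally expressed inner start, had both its first and its last start inside a peak in every list. Its covered bases were 4776 in LGE, 5103 in CGE, 2496 in MGE and 2365 in CTX.

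**Figure D5:**
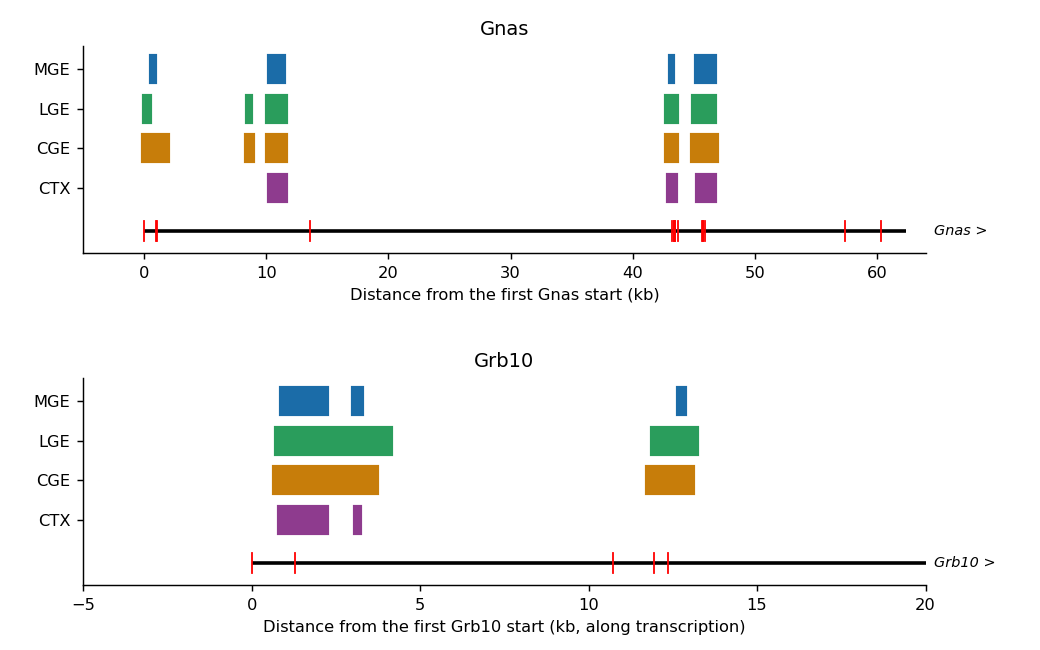
H3K4me3 peaks (coloured blocks, 1 row per list) along Gnas and Grb10, against distance in kb from the first annotated start of each gene along its transcription. Red ticks mark annotated starts on the black gene line, and CTX alone has no block within 5 kb of the first Gnas starts or of the Grb10 starts between 10 and 13 kb, where the MGE block lies beside the starts and not over them.

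In all, 31 imprinted genes had starts in more than 1 group, where starts at most 500 bp apart formed a group. Of their 127 groups, 37 had a start inside a peak in LGE, 38 in CGE, 28 in MGE and 24 in CTX. Over all genes with several groups, 25.5%, 26.2%, 23.8% and 23.7% of the groups had one in the same order. At least 2 groups were marked at 10 of the 31 genes in LGE, 9 in CGE, 5 in MGE and 4 in CTX, against 14.1%, 15.2%, 11.1% and 11.0% of all genes with several groups. The number of groups per gene was not matched, with 127 groups at the 31 genes and 47484 at all 14743. A gene with more groups has more chances to hold 2 marked ones.

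The remaining imprinted genes had a start inside a peak in all 4 lists. Peg3, a zinc finger protein that represses other genes, and its divergent neighbour Usp29, a deubiquitinase, shared 2858 covered bases in LGE, 3473 in CGE, 2660 in MGE and 2756 in CTX. Zim1, the maternally expressed zinc finger gene of the same cluster, had the narrow values of 583, 768, 384 and 311 bp, and its peaks had a fold enrichment over the background estimated by the peak caller of 8.12 in LGE, 7.79 in CGE, 8.71 in MGE and 5.89 in CTX. Mest, a hydrolase-fold protein linked to growth, had 3333 bp in LGE, 2112 bp in CGE, 1615 bp in MGE and 738 bp in CTX, and Copg2, the coatomer subunit that overlaps its end, had 1208, 1403, 837 and 833 bp. Nnat, a small membrane protein of the developing brain, had 2058 bp in LGE, 2262 bp in CGE, 1797 bp in MGE and 853 bp in CTX. Plagl1, a zinc finger factor that regulates other imprinted genes, had 2389, 2431, 2076 and 1675 bp. Impact, which restrains a kinase of the translational stress response, had 1741, 1776, 1522 and 1543 bp. Zrsr1, a retrogene of a splicing factor, lies within Commd1 and had 2288, 2358, 2152 and 1654 bp, and Commd1 itself, which counts the Zrsr1 peak within its windows, had 3368, 3704, 2929 and 2426 bp. H13, a signal peptide peptidase, had 3695, 4037, 1863 and 2175 bp, which include the Mcts2 peak. Zdbf2, a paternally expressed zinc finger gene, had 1857, 1829, 1460 and 1667 bp, and Rasgrf1, an activator of Ras, had 1085, 1695, 1090 and 884 bp.

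Levels between lists need to be read against the lists themselves, since peaks near starts had a median width of 1238 bp in LGE, 1316 bp in CGE, 782 bp in MGE and 852 bp in CTX. Of 40 marked imprinted genes, CGE was the most covered list at 32, LGE at 7, MGE at 1 and CTX at 0, and among all marked genes CGE was so at 67.7%, LGE at 16.3%, MGE at 8.04% and CTX at 6.69%. Ranked by percentile within each list, the counts were 10 for LGE, 8 for CGE, 16 for MGE and 6 for CTX. The corresponding shares of all marked genes were 15.6%, 16.1%, 42.0% and 26.3%, so the count for MGE (40% of 40) was near the background. The median covered bases of marked imprinted genes were 1980 in LGE, 2216 in CGE, 1491 in MGE and 1303 in CTX, against 1371, 1459, 994 and 1047 over all marked genes. The median log2 ratio of MGE over CTX was 0.18 over 36 imprinted genes, against -0.03 over all genes. Without peaks under 500 bp the median over imprinted genes was -0.0051. For CGE over CTX the median was 0.82 against 0.44. For LGE over CTX it was 0.52 against 0.34, for LGE over CGE -0.10 against -0.07, for MGE over LGE -0.35 against -0.39 and for MGE over CGE -0.45 against -0.49. All 36 genes marked in both CGE and CTX were more covered in CGE, as were 94.1% of all genes marked in both. Peaks in the windows of imprinted genes that were at least 2 kb wide made up 26.9% in LGE, 36.5% in CGE, 6.15% in MGE and 6.25% in CTX, against 12.6%, 15.5%, 2.91% and 3.77% of all peaks near starts.

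Genes that establish or keep imprints were themselves marked. Of 23 such genes, 21 had a peak in every list, against 61.3% of protein-coding genes, among them Zfp57, Zfp445 and Trim28, the methyltransferases Dnmt1, Dnmt3a and Dnmt3b, Uhrf1, Ctcf and Smchd1. Zfp57 had 1225 covered bases in LGE, 1468 in CGE, 1310 in MGE and 1098 in CTX, and Zfp445 had 1513, 1503, 417 and 408. The 2 without a peak were Ctcfl and Dppa3, which act in germ cells and the early embryo, and Dnmt3l, a cofactor of the oocyte, had peaks in its windows but no start inside one.

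Several imprinted genes are highly transcribed in other cells of the embryonic head, so markers of those cells are given beside them. Of 5 microglial markers 0 had a peak in any list, and of 4 choroid plexus markers only Otx2, which is also a forebrain gene, had one. Of 9 mesenchymal and meningeal markers 5 had a peak in LGE, 6 in CGE, 6 in MGE and 7 in CTX. Their covered bases summed to 6164, 7434, 3656 and 4165, most of them at Prrx1 and Foxc1 in CGE, with Lum and Col3a1 at 0 and Dcn with a peak in CTX alone. Of 6 endothelial markers 3, 3, 4 and 3 had a peak, led by Flt1 and Kdr, with Tek and Cdh5 at 0. Of 4 pericyte markers 3 had a peak in each list, and of 4 blood markers 1, 2, 2 and 2. A peak at a start does not measure transcription, and the part of these cells in the values of imprinted genes was not tested.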

How the data were processed

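Per the study's methods, the authors aligned paired CUT&Tag reads to GRCm38/mm10 with Bowtie2, removed blacklisted and duplicate reads (Picard), merged replicates (SAMtools) and called broad peaks with MACS (version, threshold and control not given in the sources used here). The submitters' processing notes also name deepTools. The deposited lists give each peak's start, end, fold enrichment (a ratio to the caller's background) and −log10 q; reads per peak are not given in the lists. Library depths stated in the study's methods differ between regions, and peak calls depend on depth.

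Here, covered bases were counted within 5 kb of every start in GENCODE M21, which were matched by symbol (Python 3.11.15, numpy 2.4.6, pandas 2.3.3, scipy 1.17.1). An overlap was at least 1 bp. The counting was tested on simulated data, where 0 of 400 windows differed from a base-by-base count. Clusters, expressed alleles and germline DMRs were assigned from general knowledge. The imprinted genes and all lists were chosen with earlier results of these data known, and every imprinted gene is named. No test across genes was run, as each region is 1 merged list. Alternatives were windows of 2 and 10 kb, the gene's 5′ end only, a −log10 q of at least 2, lists limited to the 17284 peaks of highest fold, removal of peaks under 500 bp, joining of peaks less than 1 kb apart, a start inside a peak, protein-coding genes only, 1 gene per shared window and percentiles within a list. Removal of peaks narrower than 243 bp was added after seeing the data.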

Additional observations from a re-analysis of the deposited data

Results flagged for a closer look

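Peaks more than 5 kb from every annotated start were left out of all comparisons above, and the spans of the imprinted clusters held 15 of them in LGE, 15 in CGE, 29 in MGE and 18 in CTX. They are given because the comparisons did not use them, and there were no control samples to set beside them. They made up 24.2% of the peaks in these spans in LGE, 24.2% in CGE, 33.7% in MGE and 30.5% in CTX, against 13.2%, 14.0%, 30.0% and 22.8% of all peaks in each list. They formed 41 separate intervals, of which 26 were in 1 list, 3 in 2 lists, 3 in 3 lists and 9 in all 4. Of all 10561 intervals of such peaks in the genome 69.5%, 11.2%, 6.62% and 12.7% were in 1, 2, 3 and 4 lists. Of the 26 in 1 list 15 were in MGE alone, with a median −log10 q of 1.42. Of the 9 in all 4 lists, 6 lay in the Snrpn cluster, 1 of them at chr7:60243788-60244693, with widths of 876 bp in LGE, 786 bp in CGE, 581 bp in MGE and 583 bp in CTX. One lay within Trappc9 at chr15:73020944-73022648, of 1647 bp in LGE, 1565 bp in CGE, 1325 bp in MGE and 371 bp in CTX. One lay downstream of Kcnq1 at chr7:143437378-143439090 and one near the end of H13 at chr2:152707335-152708200. Upstream of Snrpn, an interval at chr7:60449372-60450256 with peaks in MGE, LGE and CGE holds a RefSeq start of Snrpn that is 309958 bp from any GENCODE start of the gene. Within the annotated Snrpn gene, an interval at chr7:60047210-60048030 with peaks in LGE and CGE holds another RefSeq start.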

How the results depend on the processing

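Of the summary values recomputed under an alternative, 315 stayed within a tolerance and 35 did not. The tolerance was 1.5 times the reported count or, for a median, its 95% order-statistic interval over genes. That interval describes how the genes vary and gives no spread between replicates. All 17 germline DMR genes had a peak in all 4 lists under windows of 2 and 10 kb, a −log10 q of at least 2, lists of equal length, removal of peaks under 500 bp or under 243 bp, and joining, the exception being the 5′ end alone (12, against 18 of the 27 others). The number of imprinted genes marked in 1 to 3 lists, 4 as reported, was 7 with a −log10 q of at least 2, 7 with lists of equal length, 10 without peaks under 500 bp and 7 when a start had to lie inside a peak. Of the 2 genes of the H19-Igf2 cluster marked in all 4 lists, 1 was with windows of 2 kb, 1 at the 5′ end alone, 1 without peaks under 500 bp, and 0 with a −log10 q of at least 2 or with lists of equal length. For the Dlk1-Meg3 cluster the number, 1 as reported, was 2 with windows of 10 kb, 0 without peaks under 500 bp and 0 without peaks under 243 bp, a setting chosen after seeing the data. The Mest cluster kept 1 of 2 at the 5′ end alone. Without peaks under 500 bp the Peg10 cluster had 2 in place of 4, and the maternally expressed genes 7 in place of 12. MGE was the most covered list at 2 genes with windows of 2 kb, 3 with windows of 10 kb and 3 after joining, in place of 1, and LGE at 4 in place of 7 at the 5′ end alone. By percentile within a list, MGE led at 16 genes, CGE at 8 and CTX at 6, in place of 1, 32 and 0, and over all marked genes the shares by percentile were 42.0%, 16.1% and 26.3%. At least 2 times the covered bases in MGE as in CTX was found at 3 genes with windows of 2 kb, 2 at the 5′ end alone and 3 without peaks under 243 bp, in place of 5, and the reverse at 1 (Phlda2) with windows of 2 kb, in place of 0. For CGE over LGE it was 1 in place of 2 with a −log10 q of at least 2, and for LGE over CGE 0 in place of 1 with that setting and at the 5′ end alone. A peak in the 3 eminences and not in CTX was found at 4 genes in place of 2 with a −log10 q of at least 2 (Igf2, Phlda2, Dlk1 and Dio3), at the 5′ end alone (Dlk1, Dio3, Plagl1 and Gnas) and without peaks under 500 bp (Meg3, Dio3, Asb4 and Calcr). A peak in LGE and CGE only was found at 1 with a −log10 q of at least 2, 1 at the 5′ end alone and 5 without peaks under 500 bp, in place of 2. Without peaks under 500 bp the median log2 ratio of MGE over CTX turned from 0.18 to -0.0051. This value lay within the tolerance and is counted among the 315, although its sign turned. The cause of these shifts was not tested, beyond what each setting leaves out. Among the 176 single values of covered bases, the 5′ end alone lowered 49 and took the only peak from 20, windows of 2 kb lowered 61 and took it from 3, removal of peaks under 500 bp lowered 44 and took it from 11, and windows of 10 kb raised 36 and gave a peak to 5.

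No paired analysis was possible because each region's replicates had been pooled ahead of peak calling, and leaving out a replicate could not be run for the same reason. Reads per peak are unknown and library depths stated in the study's methods are uneven between regions, so an absent peak is one not called in that list, and a weak peak near the calling limit can be missed in 1 list and called in another. Broader peaks in the LGE and CGE lists raise covered bases there for most genes.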
